A study of Homo sapiens with 12 samples.

Results

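Pyroptosis is an inflammatory form of cell death that is carried out by proteins of a small pathway, and 10 of its genes were read here in NCM460 cells, a line of human colonic epithelium. They were the rows of the deposited FPKM table with the gene names NLRP1, NLRP3, PYCARD, CASP1, CASP4, CASP5, GSDMB, GSDMC, GSDMD and GSDME, which makes 10 of the 58735 genes listed. The rows were picked by gene name. FPKM are fragments per kilobase of gene and per 1000000 mapped fragments, and 9 of the 10 genes passed the filter of a mean FPKM of at least 0.1 over all libraries, which 18079 genes passed. CASP5 did not, and its reads are given instead.

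In this pathway a sensor protein meets a microbial or cellular danger signal and assembles into an inflammasome. NLRP3 responds to ion efflux and membrane damage, and NLRP1 is a main sensor of epithelial cells. The adaptor ASC, which PYCARD encodes, links a sensor to caspase-1, and caspase-1 then matures interleukin-1β and interleukin-18 and cleaves gasdermin D. Caspase-4 and caspase-5 bind lipopolysaccharide in the cytosol and cleave gasdermin D without a sensor. The released amino-terminal part of a gasdermin forms pores in the plasma membrane. In the gut epithelium, pyroptosis expels infected cells and also opens the barrier. Messenger RNA shows the supply of these proteins and not their cleavage.

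The 12 libraries fell into 4 groups of 3. Wild-type cells were kept in medium, were given TNF-α, or were given TNF-α together with Bufotenidine, which the study calls 5-OH-TMT. The last group was given TNF-α after knockdown of HTRA2, a mitochondrial serine protease, by siRNA. The study lists 3 siRNAs against HTRA2, and it is not clear whether the knockdown libraries came from 1 of them or from each. The study describes its knockdown sequencing as a comparison with a control siRNA. The labels of the TNF-α libraries name no control siRNA, and whether they served as that control is not stated. In comparisons with the knockdown, an effect of transfection therefore cannot be told apart from that of HTRA2 loss. HTRA2 itself was measured at 7.18 to 7.44 FPKM in the knockdown and at 14.0 to 15.4 with TNF-α alone. The genes AUP1 and LOXL3 overlap HTRA2 on the opposite strand, and AUP1 reached a higher FPKM than HTRA2 did in any library. Strand use in the counting is not stated, so some reads given to HTRA2 could belong to these neighbours. The HTRA2 levels and the size of their fall carry this limit. Nothing in the labels says that the 3 libraries of a group came from separate cultures, so p-values measure the spread between these libraries, which may be technical.

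Each library held 31008429 to 37624399 reads on genes. Knockdown library 2 stood apart with 2.95% of its reads on mitochondrial genes, against 3.69% to 4.68% in the others. All 6 epithelial markers (EPCAM, CDH1, KRT8, KRT18, KRT19, CLDN4) had a mean of at least 1 FPKM in each group. Of 6 colonic markers none reached it, their sum lay at 0.0111 to 0.227 FPKM, and CDX2 was at 0 in all libraries. The 10 leukocyte markers were also all under 1 FPKM, and AIF1, TYROBP and SPI1 were at 0 throughout. The labelled epithelial origin was therefore seen in the markers, and the colonic one was not.

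**Figure D1:**
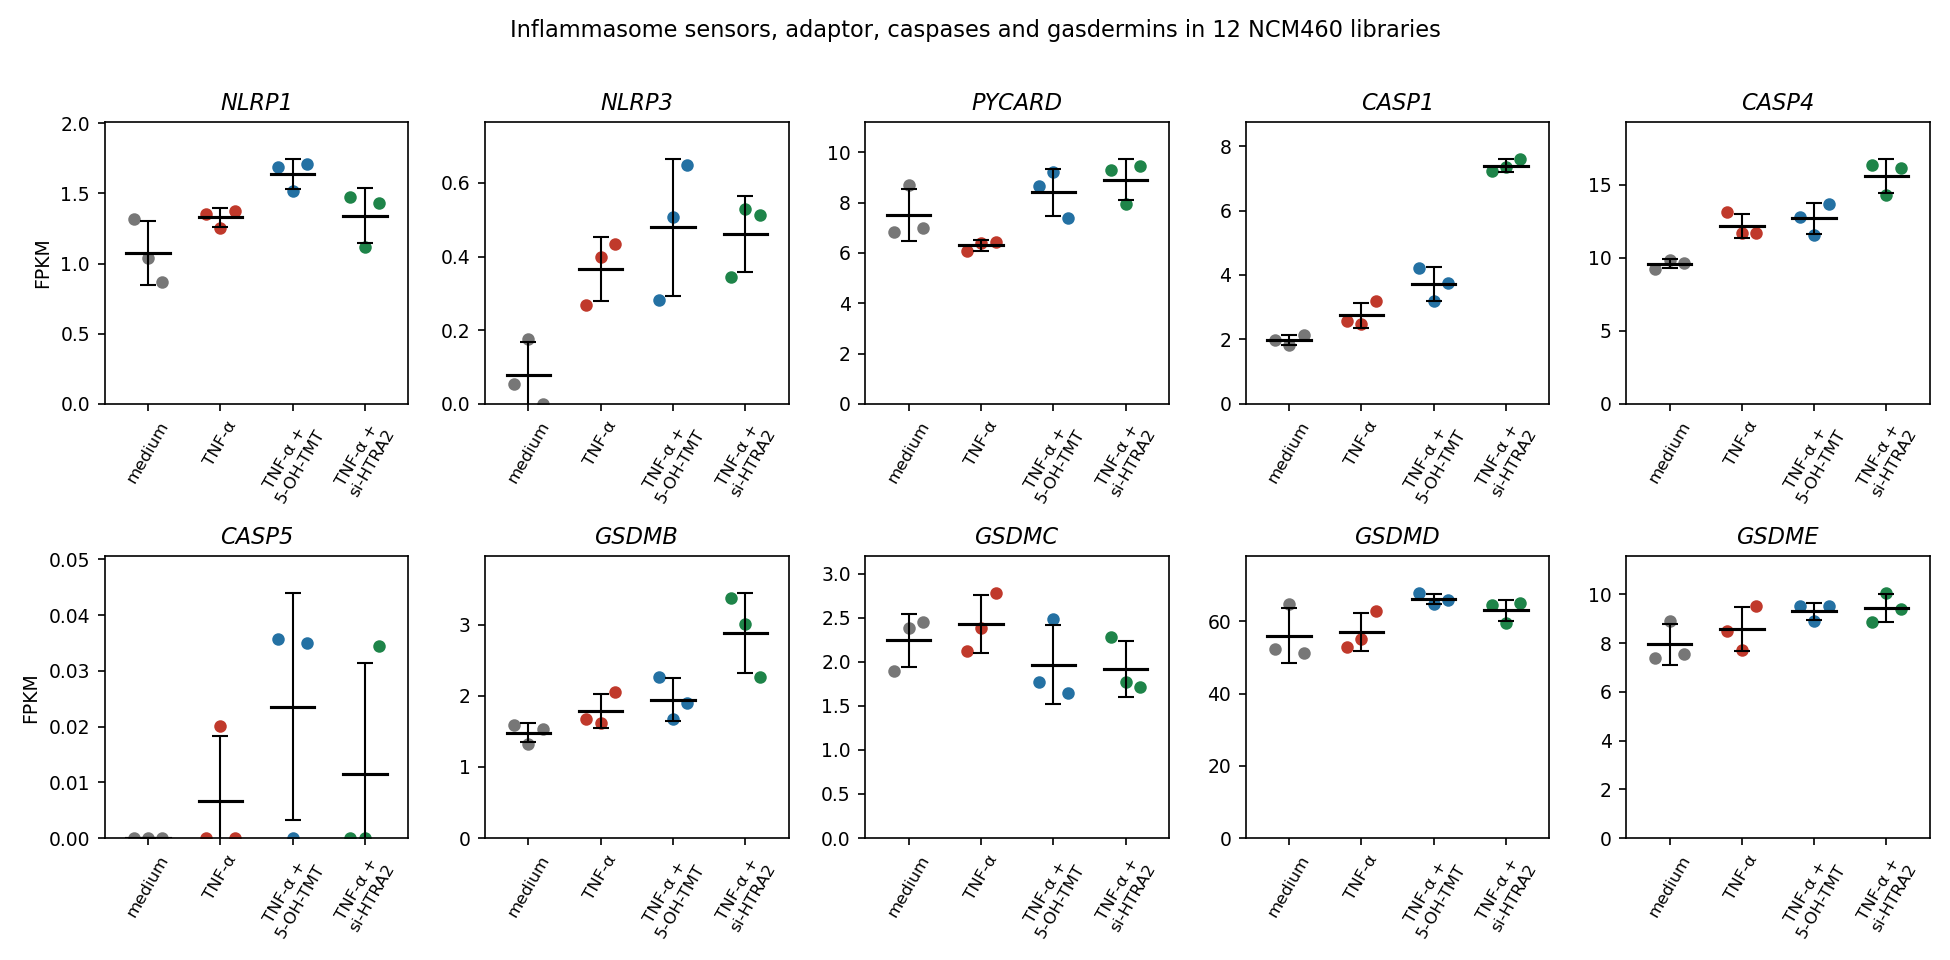
FPKM of each of the 10 genes in each of the 12 libraries, with a separate linear y axis from 0 for each gene. Points are libraries, horizontal lines are group means and bars are ± SD (n = 3). CASP1 lay between 7.22 and 7.60 in the knockdown, above all other libraries, while CASP5 stayed under 0.04 everywhere.

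Ordered by their level per length over all 12 libraries, GSDMD had the highest mean at 60.6 FPKM, followed by CASP4 at 12.5, GSDME at 8.81 and PYCARD at 7.78. CASP1 averaged 3.96, GSDMC 2.14, GSDMB 2.02 and NLRP1 1.35. NLRP3 followed at 0.347 and CASP5 at 0.0104. Within the medium group, the ranges of GSDME and PYCARD overlapped, and so did those of GSDMC and CASP1. GSDMB passed GSDMC in the knockdown, where their ranges overlapped. The pore-forming substrate was thus far more abundant as RNA than the caspases that cut its protein, and CASP5 and the sensors had the lowest means.

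Among the sensors, NLRP1 (ENSG00000091592, chromosome 17, 5499427 to 5619424, minus strand, GRCh38) was measured at 1.32, 1.04 and 0.870 FPKM in medium and at 1.36, 1.25 and 1.38 with TNF-α. It stood at 1.69, 1.52 and 1.71 under 5-OH-TMT and at 1.47, 1.12 and 1.43 in the knockdown. The gene AC055839.1 overlaps NLRP1 on the same strand and reached at most 0.223 FPKM, so some reads could belong to either gene. The 5-OH-TMT libraries lay above those of TNF-α alone and of the knockdown, and the medium and TNF-α ranges overlapped. No contrast of NLRP1 passed the test. The difference of 5-OH-TMT from TNF-α was 0.28 on the log2 scale, with a 95% interval of -0.05 to 0.62 and an adjusted p of 0.323 (limma).

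NLRP3 (ENSG00000162711, chromosome 1, 247416156 to 247449108, plus strand) was near the limit of these libraries. It had 9, 27 and 0 reads in medium, which is 0.0546, 0.177 and 0 FPKM, and a count of 0 allows up to 3 reads, or 0.0169 to 0.0202 FPKM. With TNF-α it had 47, 59 and 77 reads, or 0.269, 0.398 and 0.434 FPKM. All TNF-α libraries were above all medium libraries. The 5-OH-TMT libraries had 47, 86 and 111 reads and those of the knockdown 59, 91 and 89, and both groups overlapped that of TNF-α alone.

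The adaptor gene PYCARD (ENSG00000103490, chromosome 16, 31201485 to 31203450, minus strand) was measured at 6.81, 8.70 and 6.99 FPKM in medium and at 6.06, 6.41 and 6.43 with TNF-α. It stood at 8.64, 9.20 and 7.38 under 5-OH-TMT and at 9.29, 7.96 and 9.46 in the knockdown. The TNF-α libraries were the lowest of all 12. The antisense gene PYCARD-AS1 overlaps it and reached at most 0.0996 FPKM. Strand use in the counting is not stated, so reads of the pair cannot be told apart.

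CASP1 (ENSG00000137752) lies on the minus strand of chromosome 11, from 105025443 to 105035250. Its FPKM were 1.98, 1.82 and 2.14 in medium, 2.59, 2.47 and 3.19 under TNF-α, and 4.21, 3.18 and 3.76 when 5-OH-TMT was added. In the knockdown they were 7.22, 7.36 and 7.60. The knockdown group was higher than every other library and varied little, with a mean of 7.39 ± 0.191 (SD, n = 3) from 963 to 1024 reads per library. The TNF-α libraries lay above those in medium, and 1 TNF-α library overlapped the 5-OH-TMT group.

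CASP4 (ENSG00000196954, chromosome 11, 104942866 to 104969436, minus strand), the lipopolysaccharide receptor of human epithelial cells, was the most abundant of the 3 caspases. It was measured at 9.24, 9.88 and 9.65 FPKM in medium and at 13.1, 11.7 and 11.7 with TNF-α. It stood at 12.8, 11.6 and 13.7 under 5-OH-TMT and at 16.4, 14.3 and 16.2 in the knockdown. Medium was the lowest group and the knockdown the highest, with no overlap between either and the other groups.

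CASP5 (ENSG00000137757, chromosome 11, 104994235 to 105023168, minus strand), its close paralog, lies between CASP4 and CASP1. It had no read in medium, 1 read under TNF-α, 4 after 5-OH-TMT was added and 2 in the knockdown libraries, summed over the 3 libraries of a group. No library held more than 2, which is under the 3 reads that a count of 0 allows, or 0.0505 to 0.0604 FPKM. A difference between groups was not detectable at this depth, and no fold is given.

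The stretches before CASP4 and CASP5 are shown because these neighbours are paralogs with levels that lay far apart here. A link between the letters and the levels was not tested. RefSeq's promoter table (GRCh38.p14) held 5 of the 10 genes, namely CASP4, CASP5, GSDME, NLRP3 and PYCARD, each with 250 bases before and 50 after the start. The stretch for CASP4 is chr11:104968525-104968824 and that for CASP5 is chr11:105023119-105023418, both on the minus strand. The CASP4 stretch starts from a RefSeq start inside the gene model of the deposited table, which reaches further upstream. Capitals mark matches to a searched motif:
CASP4 promoter: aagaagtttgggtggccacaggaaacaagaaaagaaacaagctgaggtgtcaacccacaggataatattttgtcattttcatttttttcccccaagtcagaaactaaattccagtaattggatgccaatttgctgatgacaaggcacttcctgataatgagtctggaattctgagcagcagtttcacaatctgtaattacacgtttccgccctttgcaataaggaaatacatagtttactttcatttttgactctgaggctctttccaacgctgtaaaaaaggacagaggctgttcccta
CASP5 promoter: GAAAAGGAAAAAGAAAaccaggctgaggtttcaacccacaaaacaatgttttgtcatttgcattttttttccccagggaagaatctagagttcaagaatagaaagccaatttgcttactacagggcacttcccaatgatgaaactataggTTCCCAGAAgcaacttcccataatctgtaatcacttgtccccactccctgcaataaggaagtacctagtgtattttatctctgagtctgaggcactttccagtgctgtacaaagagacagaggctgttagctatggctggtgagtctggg
Global alignment paired 280 bases, of which 215 (76.8%) were identical, and left 40 gap columns. Both strands were searched for 4 motifs, and overlapping matches were kept. CASP5 held 2 overlapping matches to the core of an interferon regulatory factor element, spelled GAAA, 2 bases of any kind and GAAA again, starting 250 and 244 bases before the start, and 1 match to TTCNNNGAA, a STAT-type element, from 100 bases before it. The other 4 stretches, CASP4 included, held no match to these, to the κB consensus or to TGANTCA, an AP-1 element. Of all 35116 promoters in the table, 3.57% held the interferon regulatory factor core, 7.66% TTCNNNGAA, 7.71% TGANTCA and 11.3% the κB consensus. A match is a description of letters, and none of these windows was measured for binding.

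**Figure D2:**
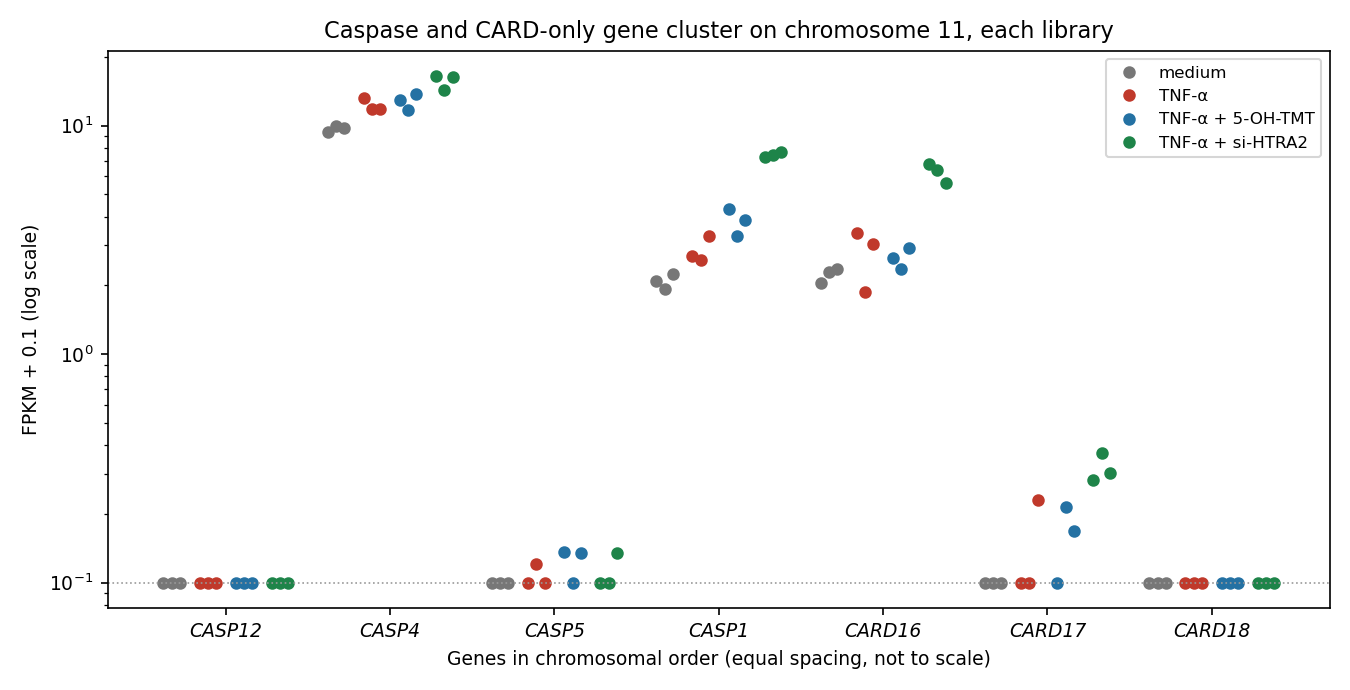
FPKM + 0.1 on a log axis for the caspase and CARD-only genes of chromosome 11 in their chromosomal order, with equal spacing and 1 point for each of the 12 libraries. CASP4, CASP1 and CARD16 were above 1 FPKM in every library, while CASP12 and CARD18 were at 0 (dotted line) in all, and CASP5 and CARD17 stayed under 0.3.

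The neighbours of CASP1 were listed because they encode CARD-only proteins that can bind caspase-1. CARD16 (chromosome 11, 105041326 to 105101431) was measured at 1.95, 2.20 and 2.27 FPKM in medium and at 3.28, 1.77 and 2.92 with TNF-α. It stood at 2.53, 2.27 and 2.80 under 5-OH-TMT and at 6.68, 6.29 and 5.49 in the knockdown, above all other libraries. CARD17 had no read in medium, 0, 0 and 6 reads with TNF-α, 0, 5 and 3 under 5-OH-TMT and 8, 12 and 9 in the knockdown. Its gene model (105092469 to 105101431) lies inside that of CARD16, on the same strand. The few reads of CARD17 could therefore come from CARD16, though their annotated transcripts shared only 2 stretches of 50 bases. CARD18 and CASP12, a caspase gene that is inactive in most people, had no read in any library. CARD16 and CASP1 shared 180 stretches of 50 bases in their annotated transcripts, which is 10.6% of those of CARD16 and 4.37% of those of CASP1. A part of the reads could thus belong to either gene. CASP4 and CASP5 shared 10 such stretches.

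The gasdermins, which form the pores, were all transcribed. GSDMD (ENSG00000104518, chromosome 8, 143553207 to 143563062, plus strand), the substrate of caspase-1 and caspase-4, was measured at 52.3, 64.8 and 51.2 FPKM in medium and at 53.0, 55.3 and 62.9 with TNF-α. It stood at 67.9, 64.9 and 65.9 under 5-OH-TMT and at 64.4, 59.6 and 65.1 in the knockdown. The 5-OH-TMT libraries were all above those of TNF-α alone, and 1 medium library nearly reached them.

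GSDME (ENSG00000105928, chromosome 7, 24698351 to 24758113, minus strand), which caspase-3 can cut, had 7.40, 8.92 and 7.54 FPKM in medium and 8.48, 7.71 and 9.50 with TNF-α. It had 9.51, 8.91 and 9.51 under 5-OH-TMT and 8.87, 10.05 and 9.40 in the knockdown. The ranges of neighbouring groups overlapped in each comparison. GSDMC (ENSG00000147697, chromosome 8, 129748196 to 129786888, minus strand) had group means of 2.24 ± 0.301, 2.43 ± 0.332, 1.97 ± 0.451 and 1.92 ± 0.317 FPKM in medium, TNF-α, 5-OH-TMT and the knockdown (SD, n = 3), and no 2 groups were apart.

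GSDMB (ENSG00000073605, chromosome 17, 39904595 to 39919854, minus strand), which granzyme A can cut, was measured at 1.59, 1.33 and 1.53 FPKM in medium and at 1.67, 1.62 and 2.06 with TNF-α. It stood at 2.27, 1.67 and 1.90 under 5-OH-TMT and at 3.37, 3.01 and 2.27 in the knockdown. Medium was the lowest group, and the knockdown lay above TNF-α alone, while its lowest library and the highest 5-OH-TMT library were nearly equal. The transcripts of the gasdermin genes shared no stretch of 50 bases.

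**Figure D3:**
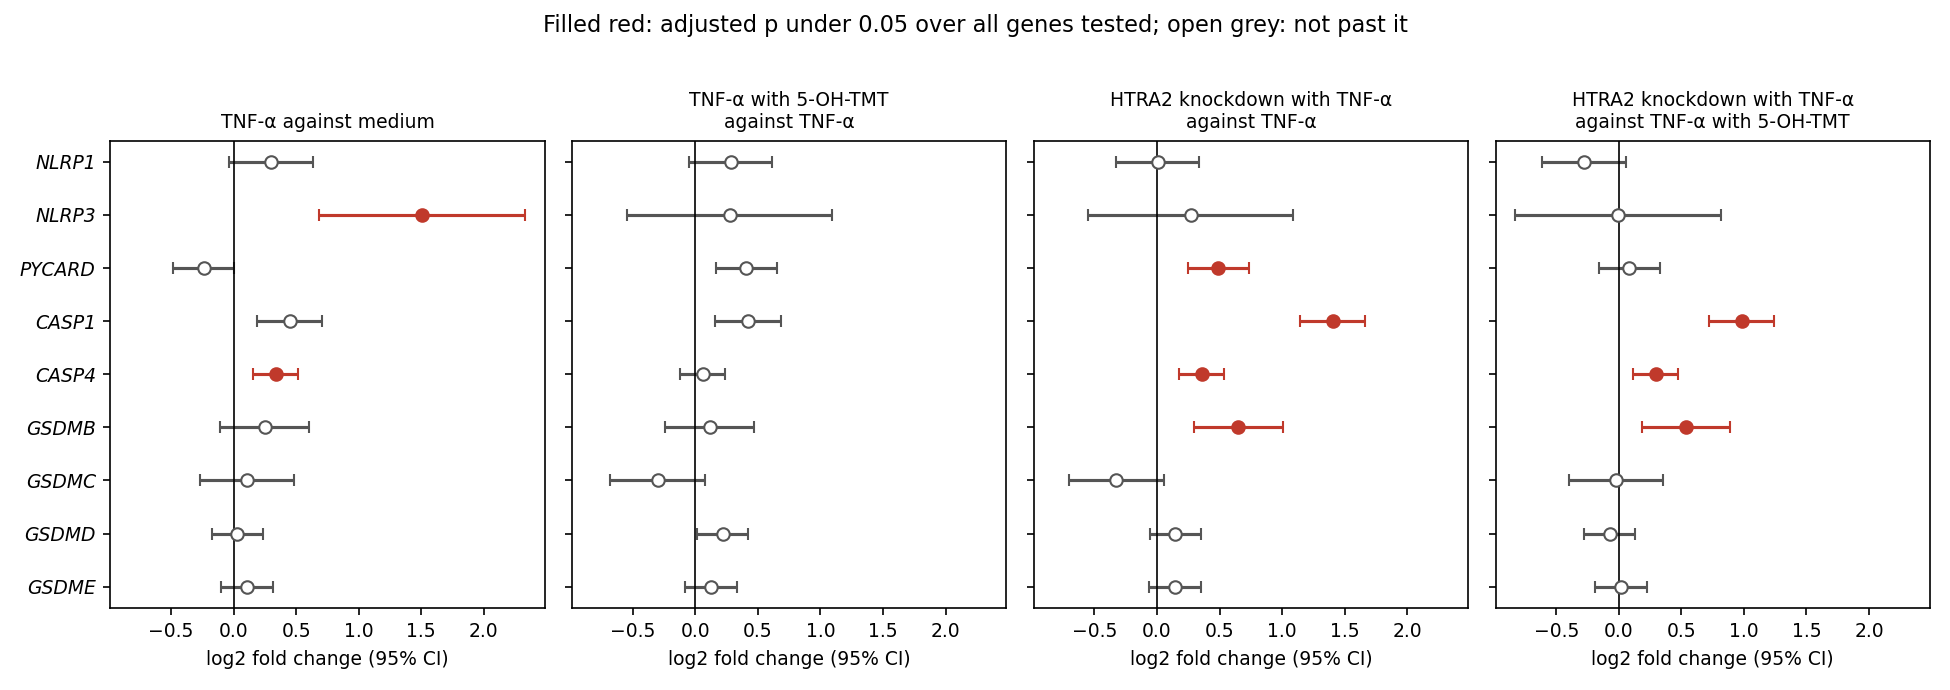
Log2 fold change on the log2(FPKM + 0.1) scale for 9 genes in 4 comparisons, with bars for the 95% interval from limma. Filled red points passed an adjusted p of 0.05 over all genes tested. CASP1 in the knockdown against TNF-α, at 1.40, and NLRP3 with TNF-α, at 1.51, were the largest of the differences shown.

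Whether TNF-α moved this pathway was asked against medium. NLRP3 rose by 1.51 ± 0.38 (SE) on the log2(FPKM + 0.1) scale (adjusted p = 0.0458), and CASP4 rose by 0.34 ± 0.083 (adjusted p = 0.0411), a 1.27-fold ratio of mean FPKM. Adjusted p-values are from limma with Benjamini-Hochberg adjustment over all genes tested. These 2 of 9 genes passed an adjusted p of 0.05, both higher, where 4.1% of all genes passed in either direction and 3.22% higher. CASP1 missed the threshold, with a difference of 0.45 ± 0.12 and an adjusted p of 0.0649. PYCARD, at -0.24 ± 0.11, had an adjusted p of 0.35 and an interval from -0.48 to 0.0037.

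Groups did not overlap for CASP1, CASP4, GSDMB and NLRP3, which were higher with TNF-α, and for PYCARD, which was lower. Over all genes, 11.1% were apart and higher and 8.74% apart and lower. An exact two-sided permutation test of 3 libraries against 3 gave p = 0.1 for each of these, the smallest it can reach. NLRP3 was also the only one of the 9 to pass the study's threshold for a DEG, a fold change of at least 2 at an unadjusted p of at most 0.05, which 2.73% of all genes passed. Neither call held throughout when libraries were left out in turn. CASP4 lost its call when any of the 6 libraries was left out (adjusted p from 0.0696 to 0.162), and NLRP3 lost it in 5 of 6 cases, the exception being medium library 2 (adjusted p from 0.0126 to 0.155). Both were also lost without the filter, in a fit of only the groups compared and with eBayes without trend, and NLRP3 lost its call with a pseudocount of 1 or 0.01. The difference of NLRP3 ran from 0.35 with a pseudocount of 1 to 3.44 with voom on recovered reads.

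Adding 5-OH-TMT to TNF-α was compared with TNF-α alone. None of the 9 genes passed the adjusted threshold in limma, and none did with voom on recovered reads. In all, 0.0387% of genes passed it. At an unadjusted p under 0.05 there were 3, PYCARD, CASP1 and GSDMD, where 20.1% of all genes reached that level. The differences were 0.41 ± 0.11 for PYCARD (adjusted p = 0.111), 0.42 ± 0.12 for CASP1 (adjusted p = 0.116) and 0.22 ± 0.093 for GSDMD (adjusted p = 0.22), in limma.

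GSDMD, NLRP1 and PYCARD were higher in every 5-OH-TMT library than in any TNF-α library, and no gene was apart in the other direction, where 16.3% and 15.5% of all genes were. None of the 9 genes was a DEG, against 1.5% of all genes. For the genes not past the threshold, the intervals set what could have been missed. CASP4 differed by 0.06 (95% interval -0.12 to 0.24), GSDME by 0.12 (-0.08 to 0.33) and NLRP3 by 0.27 (-0.55 to 1.10). GSDMC differed by -0.30 (-0.68 to 0.076) and GSDMB by 0.11 (-0.24 to 0.47).

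Knockdown of HTRA2 under TNF-α was compared with TNF-α alone. CASP1 rose by 1.40 ± 0.12 (adjusted p = 2.4e-05, limma), a 2.69-fold ratio of mean FPKM. GSDMB rose by 0.65 ± 0.16 (adjusted p = 0.0161), PYCARD by 0.49 ± 0.11 (adjusted p = 0.0103) and CASP4 by 0.36 ± 0.083 (adjusted p = 0.0111). The genes that passed were thus 4 of 9, all higher, where 17.4% of all genes passed in either direction and 9.35% higher. These 4 were also the genes whose groups did not overlap, against 17.5% of all genes for higher and 16.4% for lower.

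CASP1 was the single DEG among them, against 4.23% of all genes. Its call and that of PYCARD held when each library was left out in turn, with 1.33 to 1.51 for CASP1 and 0.44 to 0.57 for PYCARD. CASP4 lost its call without knockdown library 1 (adjusted p = 0.0527). GSDMB lost it without TNF-α library 1 or 2 or knockdown library 1, with an adjusted p of up to 0.076, and also in a fit of only the groups compared (adjusted p = 0.06). Without knockdown library 2, which stood apart in its mitochondrial share, the 4 calls were kept, with CASP1 at 1.41, GSDMB at 0.61, PYCARD at 0.57 and CASP4 at 0.42.

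The sensors and the remaining gasdermins did not pass the test in the knockdown. NLRP1 differed by 0.0038 (95% interval -0.33 to 0.34), NLRP3 by 0.27 (-0.55 to 1.09) and GSDMC by -0.32 (-0.70 to 0.053). GSDMD differed by 0.15 (-0.056 to 0.35) and GSDME by 0.14 (-0.065 to 0.35). The 10 leukocyte markers were lowest in sum with TNF-α alone and highest in the knockdown. Their summed level was 0.969 to 1.53 FPKM in the knockdown, 0.332 to 0.470 under TNF-α, 0.643 to 0.735 under 5-OH-TMT and 0.606 to 0.863 in medium. CSF1R (adjusted p = 0.00127, limma) and CD14 (adjusted p = 0.0163) were higher in the knockdown than with TNF-α. None of the 10 reached a mean of 1 FPKM, and AIF1, TYROBP and SPI1 were at 0 in all libraries. PTPRC, LYZ and CD163 held at most 4 reads in a library, and CD68 at most 6. ITGAM had 0 reads in medium, 10 to 14 with TNF-α and 13 to 30 in the knockdown. In RNA of a whole culture, more cells that transcribe a gene and more RNA per cell cannot be told apart.

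The knockdown was also compared with TNF-α and 5-OH-TMT. These comparisons share groups of libraries and are not independent of each other. The knockdown was higher in CASP1 by 0.98 ± 0.12 (adjusted p = 4.0e-04, limma), a 1.99-fold ratio. GSDMB was higher by 0.54 ± 0.16 (adjusted p = 0.0446) and CASP4 by 0.30 ± 0.083 (adjusted p = 0.0323). These 3 of 9 genes passed, all higher, where 15.3% of all genes passed and 7.85% higher. None was a DEG, against 3.19% of all genes. CASP1 kept its call in all 6 libraries left out, with 0.88 to 1.07, while CASP4 and GSDMB each lost theirs in 4 of 6 cases. For CASP4 these were 5-OH-TMT libraries 1 and 2 and knockdown libraries 1 and 3 (adjusted p up to 0.132), and for GSDMB they were 5-OH-TMT libraries 2 and 3 and knockdown libraries 1 and 2 (adjusted p up to 0.16). Both also lost their calls in a fit of only the groups compared and with eBayes without trend, and GSDMB lost it without the filter and with the replicate block. PYCARD differed by 0.084 (95% interval -0.16 to 0.33). CASP1 and CASP4 were apart and higher and NLRP1 apart and lower, against 18.2% and 17.6% of all genes.

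The other genes of the pathway were read from a list of 53, of which 39 passed the filter. The list was chosen with earlier results of these data known, so its counts are a description and not a test. With TNF-α 12 rose and none fell, where 3.22% of all genes rose and 0.885% fell, with a median log2 difference of 0.19 beside -0.0020 over all genes tested. That median was 0.10 without medium library 2 and 0.30 without medium library 3. With 5-OH-TMT none passed in either direction, against 0.0387% of all genes, 11 of 39 had an unadjusted p under 0.05, against 20.1% of all genes, and the median was 0.025 beside 0. In the knockdown against TNF-α 18 rose and 2 fell, where 9.35% of all genes rose and 8.08% fell, with a median of 0.22 beside -0.0034. Against 5-OH-TMT 14 rose and 2 fell, where 7.85% of all genes rose and 7.43% fell, with a median of 0.29 beside 0.010.

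**Figure D4:**
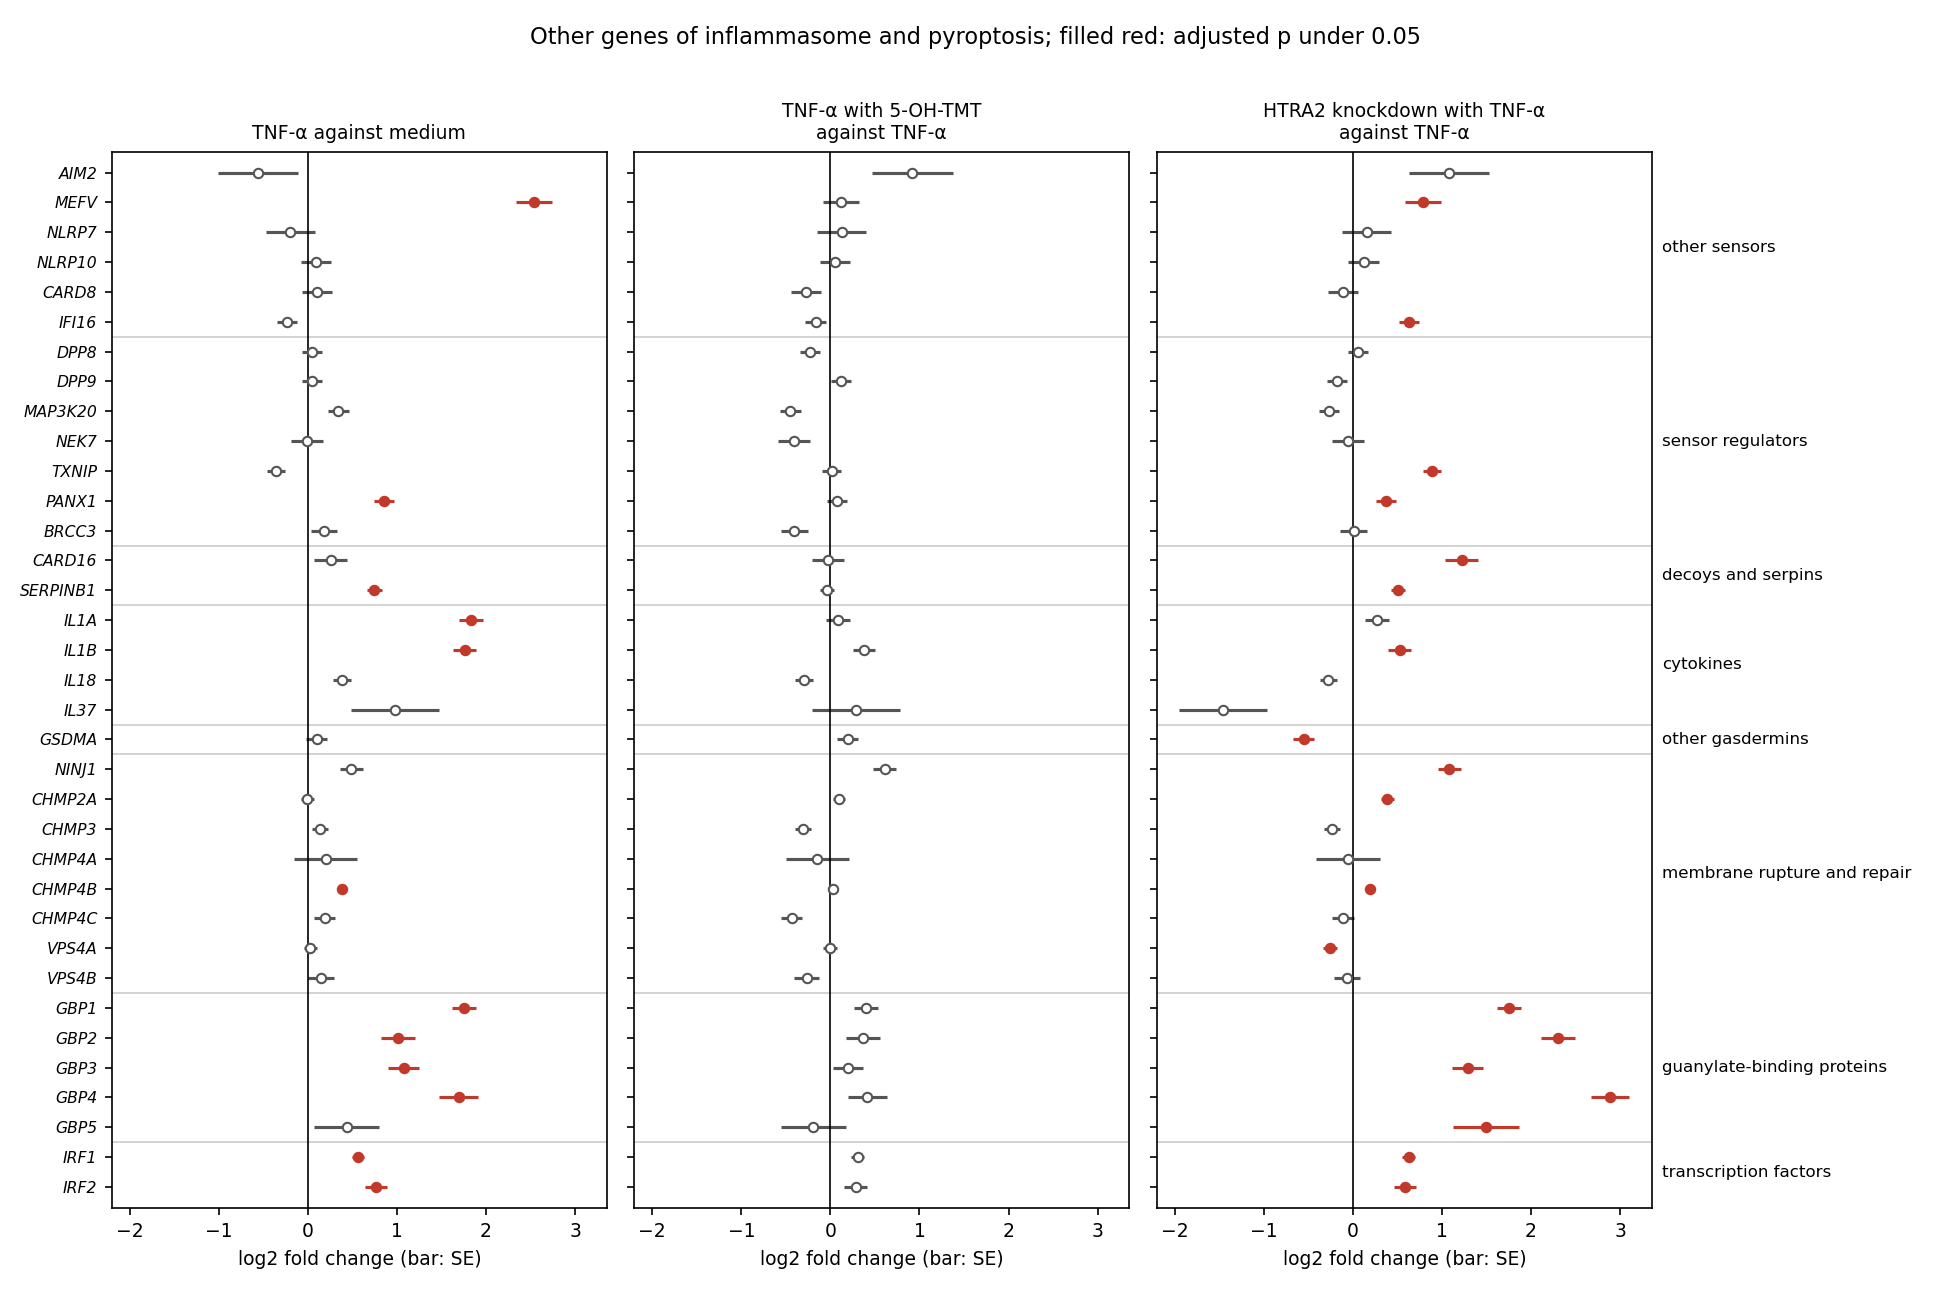
Log2 fold change ± SE of the tested pathway genes in 3 comparisons, grouped by role and leaving out the caspases, with filled red points for an adjusted p under 0.05. The guanylate-binding proteins stood farthest right in the knockdown, from 1.29 to 2.89, and no gene was red with 5-OH-TMT.

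Among other sensors, MEFV, which encodes pyrin, had 12, 14 and 10 reads in medium and 175, 116 and 181 with TNF-α. It rose by 2.54 ± 0.20 (adjusted p = 1.1e-05, limma), the largest difference on the list in that comparison, and by a further 0.79 ± 0.20 (adjusted p = 0.0179) in the knockdown. It was the only one of 6 tested sensors to rise with TNF-α, while MEFV and IFI16, a sensor of DNA, rose in the knockdown. Among 7 regulators of sensors, PANX1, a channel of the plasma membrane, rose by 0.85 ± 0.11 with TNF-α (adjusted p = 7.5e-04). TXNIP, a redox protein that can bind NLRP3, rose by 0.89 ± 0.10 in the knockdown (adjusted p = 1.5e-04), and PANX1 rose there too.

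Of 4 tested cytokine genes, 2 rose with TNF-α and 1 in the knockdown. IL1A was measured at 16.2, 14.6 and 16.5 FPKM in medium and at 56.1, 53.5 and 59.7 with TNF-α, and IL1B at 7.63, 8.76 and 8.41 and at 29.1, 26.1 and 29.7. They rose by 1.83 ± 0.14 (adjusted p = 8.3e-06) and 1.76 ± 0.13 (adjusted p = 7.3e-06, limma). In the knockdown IL1B rose by 0.53 ± 0.13 (adjusted p = 0.0144). IL18 did not pass in any comparison, and IL37, which encodes a cytokine that dampens inflammation, was lower in the knockdown than with 5-OH-TMT by 1.75 ± 0.49 (adjusted p = 0.0338), from 5 to 11 reads against 21 to 44. That call was lost when any of the 6 libraries was left out.

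The guanylate-binding proteins, which coat bacteria and bring caspase-4 to lipopolysaccharide, gave the largest differences in the knockdown. With TNF-α 4 of 5 rose, and in the knockdown all 5 rose against both TNF-α groups. GBP4 was measured at 0.113, 0.0865 and 0.180 FPKM in medium, 0.699, 0.471 and 0.722 with TNF-α, and 5.81, 5.24 and 4.71 in the knockdown. It rose by 1.69 ± 0.22 and then by 2.89 ± 0.22 (adjusted p = 6.0e-04 and 1.3e-05, limma). GBP1 rose by 1.75 ± 0.13 in each of the 2 comparisons. GBP2 rose by 1.01 ± 0.19 with TNF-α and by 2.30 ± 0.19 in the knockdown, and GBP3 by 1.08 ± 0.17 and 1.29 ± 0.17. The call of GBP2 with TNF-α was lost in a fit of only the groups compared (adjusted p = 0.0765, limma). GBP5, at 7 to 25 reads with TNF-α and 69 to 123 in the knockdown, rose by 1.49 ± 0.37 (adjusted p = 0.0155) and lost its call without knockdown library 2 (adjusted p = 0.0522) and with a pseudocount of 0.01 (adjusted p = 0.0801). IRF1 and IRF2, transcription factors of interferon responses, both rose with TNF-α and again in the knockdown.

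Among decoys and inhibitors, CARD16 rose by 1.22 ± 0.18 in the knockdown (adjusted p = 9.0e-04, limma) and SERPINB1, an inhibitor of caspase activation, rose both there and with TNF-α. Of 8 genes that rupture or repair the membrane, NINJ1, which breaks the membrane in the last step of lysis, rose by 1.08 ± 0.13 in the knockdown (adjusted p = 2.0e-04), from 31.3 to 36.1 FPKM with TNF-α up to 60.6 to 81.6. CHMP4B and CHMP2A, subunits of the repair complex ESCRT-III, rose there, and VPS4A, which takes that complex apart, fell. GSDMA, the gasdermin of skin, fell by 0.55 ± 0.12 in the knockdown (adjusted p = 0.00745).

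The genes whose profile over the 12 libraries lay nearest to a member were found by the root mean square difference of centred log2(FPKM + 0.1), over 11184 genes with a mean of at least 1 FPKM. Nearest to CASP1 was HLA-B, a class I histocompatibility gene, at 0.166, followed by TRANK1 at 0.174 and USP18 at 0.179, where CASP1 itself varied by 0.695 about its mean. HLA-B averaged 22.0, 37.0, 43.6 and 87.5 FPKM in medium, TNF-α, 5-OH-TMT and the knockdown. Nearest to CASP4 were DENND5A at 0.0659, PTPRJ and PPP1R18. Nearest to GSDMB were TDRD7 at 0.133, AF117829.1 and CLMN, and nearest to PYCARD were LY6E at 0.0844, PRDX5 and SH3TC1. These members varied less about their means than CASP1 did, by 0.259 for CASP4, 0.370 for GSDMB and 0.221 for PYCARD. LY6E averaged 416 FPKM in medium, 359 with TNF-α, 439 in the 5-OH-TMT group and 470 in the knockdown, with its lowest mean in the same group as PYCARD. Likeness over shared libraries is a description and carries no test.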

How the data were processed

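Poly(A)-selected RNA of 12 NCM460 libraries was measured by sequencing. The authors deposited a single FPKM table with the length and the GRCh38 position of each gene. The submitters' processing notes name CASAVA 1.8, HISAT2 2.0.4, HTSeq 0.9.1 and hg38, and the scaling and the strandedness of the counting are not given in the sources used here. Groups were taken from the labels. Whole reads were recovered from the FPKM steps, with 100% of values within 0.01 of a whole number, and they serve as depth.

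With R 4.3.3 and limma 3.58.1, log2(FPKM + 0.1) was modelled by group (eBayes with trend, 8 residual degrees of freedom). Genes averaging under 0.1 FPKM across the libraries were left out, and 18079 were tested. The 4 contrasts were tested two-sided with Benjamini-Hochberg adjustment over all these genes. On this log2 scale the fold changes of low genes are understated. The script was tested on simulated data. The members were tested singly by exact permutation as well.

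The 10 genes, the list of 53 pathway genes and the markers were chosen with earlier results of these data known. Of the pathway list, the text names per contrast at most 8 genes with an adjusted p under 0.05 and the largest differences, the CARD-only neighbours of CASP1, and further genes where a small count is given, which were chosen after their values were seen. Nearest profiles were taken for members with a mean of at least 1 FPKM that passed in a contrast, 3 genes each. Alternatives were pseudocounts of 1 and 0.01, a filter at 1 FPKM and none, 2 rescalings (a fixed sum and the median of ratios), a model of the compared groups alone, the replicate number as a term, voom on recovered reads, eBayes without trend, and each library left out in turn. The values of some listed genes are not reported here, though the counts over the list include them.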

Additional observations from a re-analysis of the deposited data

How the results depend on the processing

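The 9 genes tested gave 356 results with all libraries kept under the alternatives, of which 332 kept their direction and side of the threshold, 16 lost a call, 1 gained a call and 7 changed sign. With TNF-α against medium, the count of 2 calls became 1 with a pseudocount of 1 or 0.01 or with the replicate block, and 0 without a filter, in a fit of only the groups compared, or with eBayes without trend. Under a filter of 1 FPKM, which drops NLRP3, CASP1 gained a call (adjusted p = 0.0393, limma). The DEG count became 0 with a pseudocount of 1 or that filter. For the knockdown against 5-OH-TMT, the count of 3 became 1 in a fit of only the groups compared or with eBayes without trend, and its DEG count of 0 became 1, CASP1, under the fixed sum or voom. Pathway calls with 5-OH-TMT were 0, and 1 under a filter of 1 FPKM, 4 in a fit of only the groups compared and 2 with voom. Over all genes, 78 were called higher and 49 lower of 11185 tested under that filter. Of 18079 tested, 473 were higher and 438 lower in the fit of the groups compared, and 139 and 97 with voom. For the 9 genes, leaving out 1 library gave 0 to 1 calls with TNF-α and 2 to 4 in the knockdown against TNF-α. In the knockdown against 5-OH-TMT it gave 1 to 2, where the DEG count was 0 to 1. The causes were not tested.

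The labels do not say whether the replicate numbers pair the libraries. The correlation of deviations within a number was between -0.052 and 0.038, which shows no pairing but cannot exclude it. With the number as a block, CASP4 lost its call with TNF-α (adjusted p = 0.0602, limma), and GSDMB (0.0573) and IL37 (0.0626) lost theirs in the knockdown against 5-OH-TMT.

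Changes of sign were small and none was of a called difference. In the knockdown against 5-OH-TMT, GSDMC became 0.059 and GSDMD 0.011 under the fixed sum, GSDMC became 0.0033 with voom, and NLRP3 became 0.0032 with a pseudocount of 0.01, 0.079 under the fixed sum and 0.028 with voom. NLRP1 in the knockdown against TNF-α became -0.0035 with voom. With 1 library left out, log2 differences ran from -0.044 to 0.14 for GSDMD and from -0.0016 to 0.20 for GSDMC with TNF-α, from -0.29 to 0.14 for CARD16 with 5-OH-TMT, and from -0.064 to 0.12 for NLRP1 in the knockdown against TNF-α. In the knockdown against 5-OH-TMT they ran from -0.15 to 0.15 for GSDMC, from -0.027 to 0.062 for GSDME, from -0.28 to 0.21 for NLRP3 and from -0.0057 to 0.16 for PYCARD. Depth limited CASP5 and NLRP3.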
